A study of Homo sapiens with 12 samples.

Results

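The transition from G1 into S phase was followed here through 10 genes, which were listed by name among the 56638 gene symbols of a count table of 501Mel cells, an established human melanoma cell line. They are the D-type cyclins CCND1 and CCND3, the E-type cyclins CCNE1 and CCNE2, the kinases CDK4 and CDK6, the kinase inhibitors CDKN1B and CDKN2C, the pocket protein RB1 and the transcription factor E2F1. All 10 had enough counts to be tested, among 16080 tested genes. Treatment lasted 48 h and was DMSO (the vehicle), Vemurafenib (Vem) at 1 μM, Resveratrol (RSV) at 5 μM, TCDD at 10 nM, RSV+Vem or RSV+TCDD, with 2 sequenced libraries each. Vem is a BRAF inhibitor. TCDD is a ligand of the Aryl hydrocarbon Receptor (AhR), a transcription factor of which the study used RSV as an antagonist. The study reports Vem as a ligand of AhR too. RSV was given at 5 μM and Vem at 1 μM in the mixtures too. For the mixture with TCDD the treatment protocol states 10 nM and the label of its libraries 1 nM, so comparisons with that group carry this doubt about the dose. All groups are of 1 cell line, and nothing in the labels says that the 2 libraries came from separate cultures, so p-values measure the spread between these libraries, which may be technical.

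In G1, D-type cyclins bind CDK4 or CDK6 and E-type cyclins bind CDK2, and these kinases phosphorylate RB1, which otherwise holds E2F factors inactive on their target genes. CDKN2C binds CDK4 and CDK6, and CDKN1B binds cyclin-CDK complexes, mainly those of CDK2. E2F1 turns on genes of DNA synthesis, and also CCNE1, CCNE2 and E2F1 itself. CCND1 is known as a gene that growth factor signalling through the MAP kinase cascade turns on, and BRAF is a kinase of that cascade.

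Counts on genes ranged from 8378655 in the second RSV+Vem library to 25076925 in the second vehicle library. Levels are given as CPM, the share of a library's counts after scaling by edgeR's TMM factors, and each change as a log2 fold change ± its standard error from edgeR's quasi-likelihood test, with p-values adjusted by the Benjamini-Hochberg method over all tested genes. A gene was called, and is said to have risen or fallen, at an adjusted p below 0.05. With scaling to the ERCC spike-ins in place of TMM fewer members were called in most comparisons: 6 of 7 remained with Vem, 0 of 2 with TCDD, 0 of 7 with RSV, 1 of 6 in RSV+Vem against RSV (CCND1), 1 of 6 in RSV+Vem against Vem (CCNE2), 3 of 6 in RSV+TCDD against TCDD and 0 of 5 in the interaction of RSV and Vem. Calls over all 16080 tested genes fell as well in these comparisons. With RSV, 3295 were higher and 3243 lower by TMM, and 256 and 113 with spike-in scaling. With TCDD 759 and 323 became 2 and 8, and in the interaction of RSV and Vem 1905 and 1751 became 8 and 0. In RSV+TCDD against RSV they rose, from 625 and 366 to 1 and 6926. The RNA integrity number (RIN) was 8.7 and 8.6 in the RSV+Vem libraries and between 9.1 and 9.7 in the others, and the part of RIN and depth in results on RSV+Vem was not tested. The 7 melanocytic markers were high in every library, MITF for example between 457 and 1260 CPM, and their summed level ran from 11108 CPM in an RSV library to 51552 CPM in a Vem library. Markers of leukocytes, endothelium, fibroblasts and keratinocytes were at or near 0 except LUM (5.69 to 38.2 CPM) and KRT10 (13.7 to 26.0 CPM), and PECAM1 and KRT1 had no count. All 7 melanocytic markers were called lower in each comparison that adds RSV (to vehicle, Vem or TCDD), and 6 were called higher with Vem alone and in RSV+Vem against RSV. LUM was called lower with Vem (-1.09 ± 0.20), higher with TCDD (1.47 ± 0.17) and lower in the interaction of RSV and TCDD (-1.42 ± 0.25). It was also called lower in RSV+Vem against RSV and in RSV+TCDD against TCDD. COL1A1, between 0.461 and 2.59 CPM, was called lower with Vem and higher in RSV+Vem against Vem and RSV+TCDD against TCDD. It averaged 0.745 CPM with TCDD against 1.49 CPM in vehicle, not called. VWF averaged 0.278 CPM in vehicle, 1.06 CPM with Vem and 1.09 CPM with RSV. KRT10 was called lower with RSV and in RSV+TCDD against TCDD. The part of these markers in the members' results was not tested. In bulk RNA, fewer cells in a phase of the cycle and less RNA of a gene per cell cannot be told apart.

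Promoters are shown for E2F1, whose own promoter carries E2F words, and for CDK6. The CDK6 window shown has the word that AhR is known to bind. CDK6 is a member that fell with TCDD (-0.44 on the log2 scale), but also with Vem (-0.97) and with RSV (-0.79). The windows are RefSeq promoters of 300 bases, 250 before and 50 after the start, placed on GRCh37 by an exact match. In the E2F1 window, chr20:32274142-32274441 on the minus strand, the capitals mark TTTGCCGC on the opposite strand at position -33 and TTTGGCGC at position -20 relative to the start. In the CDK6 window, chr7:92463224-92463523 on the minus strand, they mark GCGTG on the opposite strand at position -18.
E2F1: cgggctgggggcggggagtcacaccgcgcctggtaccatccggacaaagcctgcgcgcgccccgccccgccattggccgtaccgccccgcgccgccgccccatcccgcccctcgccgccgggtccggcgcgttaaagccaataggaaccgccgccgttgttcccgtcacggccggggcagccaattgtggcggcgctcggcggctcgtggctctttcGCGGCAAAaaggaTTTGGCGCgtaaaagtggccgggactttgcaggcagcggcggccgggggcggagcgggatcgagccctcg
CDK6: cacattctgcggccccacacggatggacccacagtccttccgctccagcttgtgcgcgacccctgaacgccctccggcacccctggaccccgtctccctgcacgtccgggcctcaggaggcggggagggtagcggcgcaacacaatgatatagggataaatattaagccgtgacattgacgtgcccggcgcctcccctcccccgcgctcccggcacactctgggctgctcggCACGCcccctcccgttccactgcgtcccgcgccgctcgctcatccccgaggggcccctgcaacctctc

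The table held 13 windows for 8 of the 10 genes and none for CCND1 and CCNE2, so neither was searched. The E2F words TTTCCCGC, TTTGGCGC, TTTCGCGC and TTTGCCGC, searched on both strands, were in 1 of these 13 windows, that of E2F1, and in 3.31% of the 35116 windows of all genes. GCGTG, also searched on both strands, was in 5 of the 13 windows, which belong to the 4 genes CCND3, CDK6, CDKN1B and CDKN2C, and in 36.5% of all windows. Another window of CDK6 was without it. Of these 4 genes only CDK6 was called with TCDD. CCND3 was at 0.03, CDKN2C at -0.02 and CDKN1B at 0.29 on the log2 scale. CCNE2, the other member that fell with TCDD, had no window. The part of the word in the fall of CDK6 was not tested. The words are described as letters in these windows, and no binding was measured.

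In vehicle the members differed widely in level per kilobase of annotated exon. CCND1 led with 138 ± 3.39 CPM per kb (SD, n = 2), ahead of CDK4 with 78.7 ± 4.15. RB1 followed with 22.3 ± 2.65 and E2F1 with 20.5 ± 4.05, which differed by less than their SDs. CCND3 stood at 12.5 ± 2.54, CDKN2C at 9.85 ± 0.533, CDKN1B at 8.57 ± 3.85, CDK6 at 6.23 ± 0.928, CCNE1 at 5.23 ± 0.739 and CCNE2 at 4.12 ± 0.457 CPM per kb, and no neighbours in this order differed by more than the sum of their SDs.

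**Figure D1:**
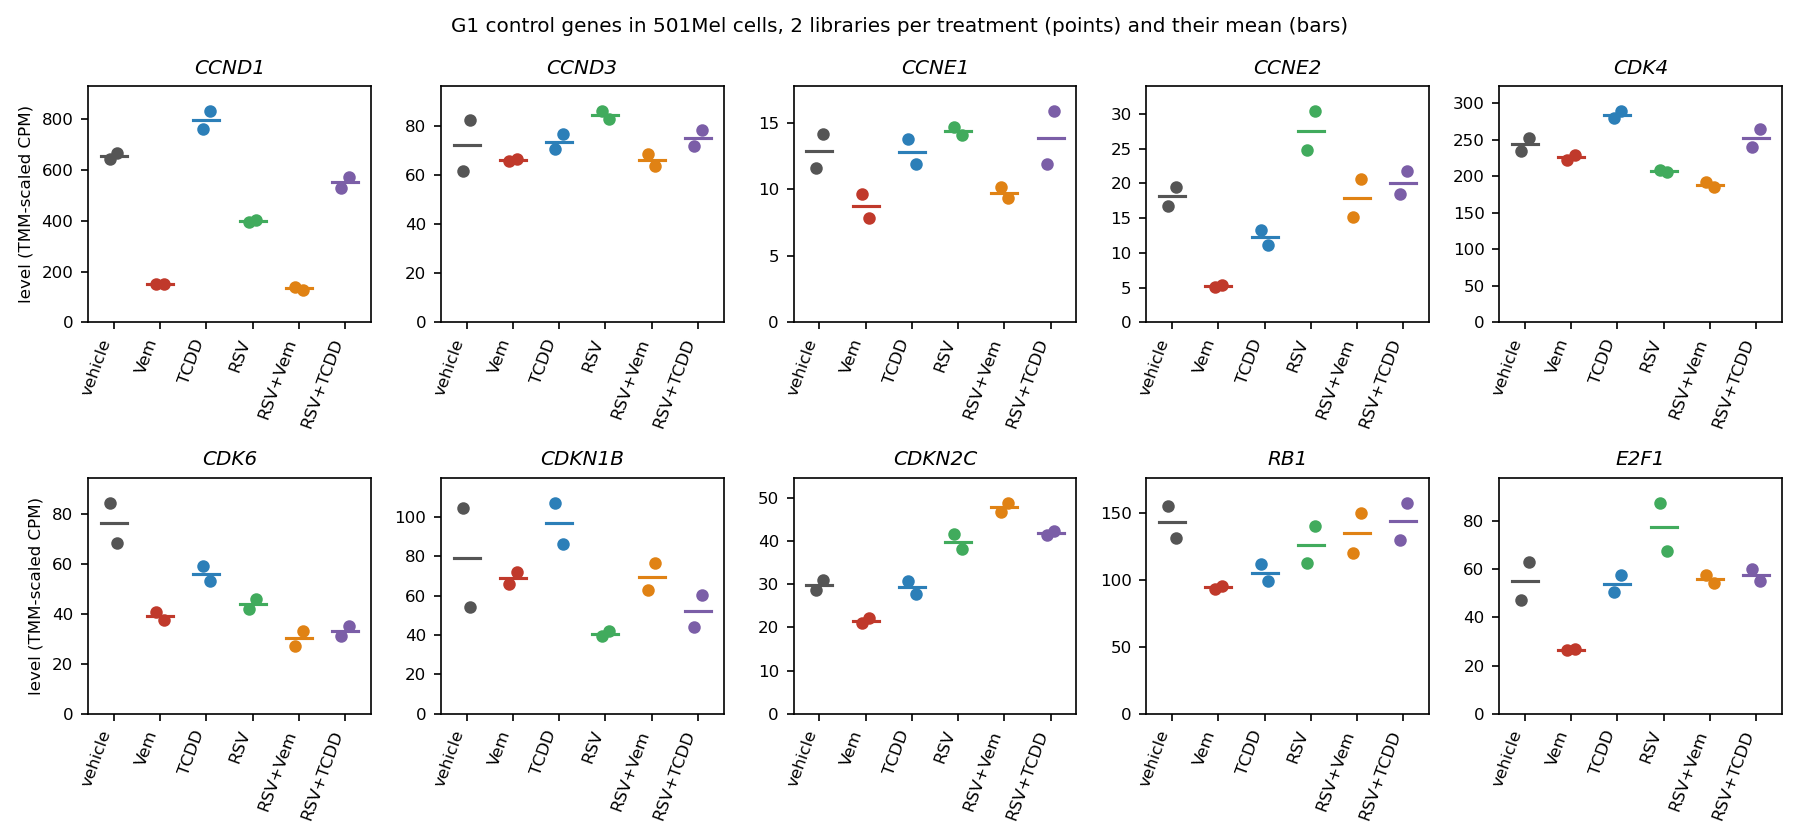
Level of each G1 control gene in TMM-scaled CPM (vertical axes, each from 0) in the 6 treatments (horizontal axes). Points are libraries, 2 per treatment, and bars their mean. CCND1 is low in all 4 libraries that hold Vem, between 127 and 150 CPM, and CCNE2 and E2F1 are lowest with Vem alone.

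The effect of the BRAF inhibitor alone was read from Vem against vehicle. Vem lowered 7 of the 10 members and raised none, and these include cyclins of both types, a kinase, an inhibitor, RB1 and E2F1. Over all tested genes 26.9% fell and 25.5% rose, and the median log2 fold change was -0.58 over the members and -0.03 over all genes. CCND3, CDK4 and CDKN1B did not pass the test.

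CCND1 had the largest change among the members. Its level was 644 and 667 CPM in vehicle and 149 and 150 CPM with Vem, so the groups lay far apart. The log2 fold change was -2.13 ± 0.09 (adjusted p = 3.2e-12, edgeR's quasi-likelihood test), which leaves 0.228 of the vehicle level. CCND3, the other D-type cyclin measured, was at 61.8 and 82.5 CPM in vehicle and 65.7 and 66.6 CPM with Vem (-0.13 ± 0.12, adjusted p = 0.389). The share of CCND1 in the level of both D-type cyclins per kb was 92.7% and 90.7% in the vehicle libraries and 73.3% and 73.1% with Vem.

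Of the E-type cyclins, CCNE2 was at 16.7 and 19.5 CPM in vehicle and at 5.15 and 5.30 CPM with Vem, from 74 and 69 counts. Its log2 fold change was -1.80 ± 0.19 (adjusted p = 2.78e-07, edgeR's quasi-likelihood test). CCNE1 fell from 11.6 and 14.2 CPM to 9.67 and 7.84 CPM (-0.56 ± 0.17, adjusted p = 0.0123), and CCNE2 went from 44.6% and 43.6% of the E-type pair per kb to 23.0% and 27.5%.

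CDK6 fell from 84.3 and 68.3 CPM to 40.6 and 37.4 CPM (-0.97 ± 0.13, adjusted p = 5.28e-06, edgeR's quasi-likelihood test). CDK4, the more abundant of both kinases, was at 235 and 253 CPM in vehicle and 223 and 230 CPM with Vem (-0.11 ± 0.08, adjusted p = 0.301), with a 95% interval from -0.28 to 0.07. RB1 fell from 156 and 132 CPM to 93.7 and 95.7 CPM (-0.60 ± 0.13, adjusted p = 0.00138). E2F1 was at 47.3 and 62.7 CPM in vehicle and at 26.5 and 26.7 CPM with Vem (-1.05 ± 0.14, adjusted p = 8.01e-06).

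Of the inhibitors, CDKN2C fell from 28.6 and 30.9 CPM to 21.0 and 22.1 CPM (-0.46 ± 0.12, adjusted p = 0.00232, edgeR's quasi-likelihood test). CDKN1B was at 104 and 54.2 CPM in the vehicle libraries and at 65.8 and 72.0 CPM with Vem (-0.20 ± 0.29, adjusted p = 0.598), so its vehicle libraries lay further apart than the groups. Leaving out 1 library at a time left between 6 and 8 members called. The call of CCNE1 was lost without vehicle replicate 2 (-0.38, adjusted p = 0.137, edgeR's quasi-likelihood test) or without Vem replicate 2 (-0.42, adjusted p = 0.136), CCND3 was called lower without vehicle replicate 1 (-0.32, adjusted p = 0.0278), and CDKN1B was called lower without vehicle replicate 2 (-0.58, adjusted p = 0.0121). The signs of both turned when the other vehicle library was left out, to 0.12 for CCND3 without vehicle replicate 2 and 0.34 for CDKN1B without vehicle replicate 1, neither of them called.

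Genes that act beside the members were counted from 4 lists. All 13 listed E2F target genes fell with Vem, with a median log2 fold change of -1.50, and the largest fall was that of MCM7, a subunit of the replicative helicase (-1.74 ± 0.11). Of 11 other pocket proteins, E2F and DP factors 10 fell, E2F8, a repressor among the E2F factors, by the most (-1.82 ± 0.14). Of 9 genes of CDK activation and turnover 8 fell and none rose, with CKS1B, a small CDK-binding subunit, lowest (-1.83 ± 0.11). Among 7 other G1 cyclins, CDKs and inhibitors, of which 6 were tested, the CDK4 and CDK6 inhibitor CDKN2B rose (0.49 ± 0.19) while CDKN2A (-0.75 ± 0.17) and CDKN1C (-0.74 ± 0.30), a relative of CDKN1B, fell. CCND2, the remaining D-type cyclin, was not tested because it had at most 2 counts in any library.

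The effect of RSV alone was read from RSV against vehicle. RSV moved 7 members, but in both directions: CCNE2, E2F1 and CDKN2C rose, and CCND1, CDK6, CDKN1B and CDK4 fell. In all tested genes 20.5% rose and 20.2% fell, and the median log2 fold change was -0.01 over the members. RSV and Vem were compared with the same vehicle libraries.

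CCNE2 rose to 24.8 and 30.4 CPM with RSV, above both vehicle libraries (0.60 ± 0.16, adjusted p = 0.00498, edgeR's quasi-likelihood test). E2F1 rose to 87.4 and 67.5 CPM (0.49 ± 0.14, adjusted p = 0.00818), and CDKN2C to 41.7 and 38.0 CPM (0.42 ± 0.11, adjusted p = 0.00513).

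CCND1 fell to 393 and 403 CPM with RSV (-0.72 ± 0.09, adjusted p = 4.43e-06, edgeR's quasi-likelihood test). CDK6 fell to 41.8 and 46.1 CPM (-0.79 ± 0.13, adjusted p = 9.28e-05) and CDK4 to 208 and 206 CPM (-0.23 ± 0.08, adjusted p = 0.0332). CDKN1B was at 39.5 and 42.0 CPM, below both vehicle libraries (-0.96 ± 0.30, adjusted p = 0.0325), and its call was lost without vehicle replicate 1 (-0.42, adjusted p = 0.0835), without either RSV library, with a replicate block (-0.95, adjusted p = 0.0513), without a filter on low counts (adjusted p = 0.0915) and with only the libraries compared (adjusted p = 0.132). RB1 was at 113 and 141 CPM (-0.18 ± 0.13, adjusted p = 0.3), overlapping vehicle. Without 1 library, 4 members were called when vehicle replicate 1 was left out, 7 without vehicle replicate 2, 3 without RSV replicate 1 and 4 without RSV replicate 2, and CCND1 and CDK6 were called in each of these 4 fits. E2F1 was at 0.30 without vehicle replicate 1 and 0.29 without RSV replicate 1, CCNE2 at 0.49 without vehicle replicate 1 and 0.45 without RSV replicate 2, CDKN2C at 0.35 without RSV replicate 1 and CDK4 at -0.18 without vehicle replicate 2, where each lost its call, as CDK4 did without either RSV library. CCND3 was called higher without vehicle replicate 2 (0.45).

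Of the genes beside the members, RSV raised 4 of the 13 E2F targets and lowered 4. TK1, which salvages thymidine, rose by the most (1.02 ± 0.11) and the helicase subunit MCM5 fell by the most (-0.50 ± 0.13). CDKN2B rose (2.99 ± 0.17) from 4.50 and 4.57 CPM to 40.2 and 32.4 CPM, with no overlap. CDKN1A, the p53-responsive CDK inhibitor, had 1 count in each vehicle library and 23 and 17 counts with RSV. It passed the filter on low counts through the groups with RSV, so its counts are given without a test. CDK2 fell (-0.54 ± 0.08). E2F2 rose (0.75 ± 0.12) and E2F5 fell (-0.65 ± 0.25), and 4 of the 9 genes of CDK activation and turnover fell, MNAT1, a subunit of the CDK-activating kinase, by the most (-0.77 ± 0.13).

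**Figure D2:**
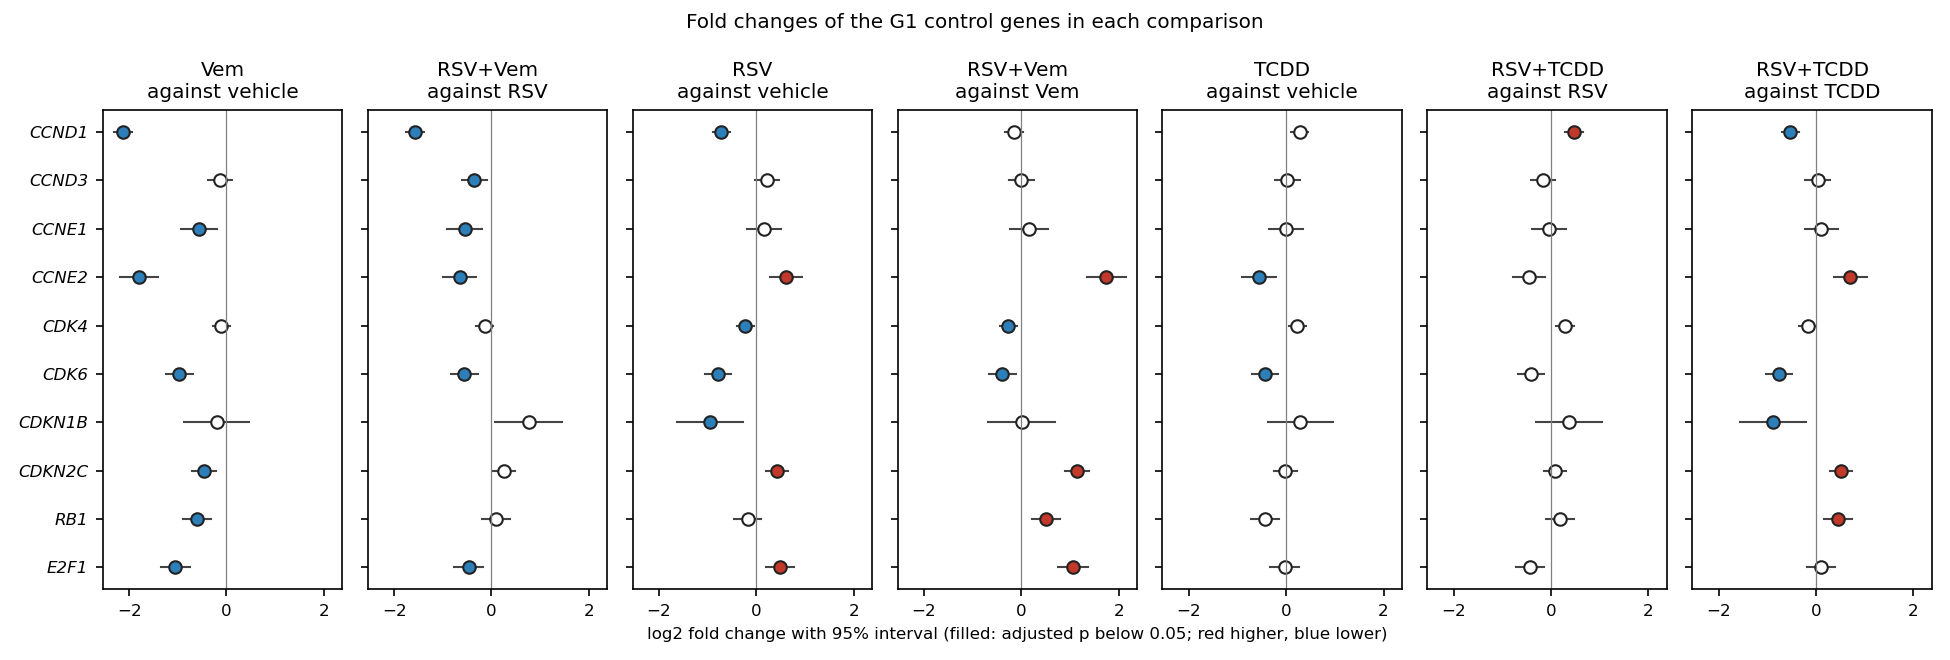
Log2 fold change of each member (horizontal axis, bars are 95% intervals) in the 7 comparisons of treatments. Filled points are called at adjusted p below 0.05, red for higher and blue for lower. CCND1 is lowest with Vem (-2.13), and CCNE2 is highest when RSV was added to Vem (1.75).

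The effect of Vem in the presence of RSV was read from RSV+Vem against RSV. Vem lowered 6 members and raised none, namely CCND1, CCNE2, CDK6, CCNE1, E2F1 and CCND3. In all tested genes 13.4% fell and 11.3% rose, and the median was -0.41 over the members and 0.00 over all genes. CCND1 was at 141 and 127 CPM (-1.57 ± 0.09, adjusted p = 7.01e-10, edgeR's quasi-likelihood test). CCNE2 was at 15.2 and 20.6 CPM (-0.65 ± 0.16, adjusted p = 0.0071), E2F1 at 57.3 and 54.3 CPM (-0.47 ± 0.14, adjusted p = 0.0193) and CDK6 at 27.1 and 33.2 CPM (-0.56 ± 0.13, adjusted p = 0.00522). CCNE1 was at 10.2 and 9.33 CPM (-0.55 ± 0.17, adjusted p = 0.0282) and CCND3 at 68.5 and 63.5 CPM (-0.35 ± 0.12, adjusted p = 0.0408). Without 1 library, 3 members were called when RSV replicate 1, RSV replicate 2 or RSV+Vem replicate 2 was left out and 1 without RSV+Vem replicate 1. CCND1 was called each time. The calls of CCNE1 and CCND3 were lost without any 1 of these 4 libraries, that of CDK6 without RSV+Vem replicate 1 (-0.41), that of CCNE2 without RSV replicate 2 (-0.50) or RSV+Vem replicate 1 (-0.42), and that of E2F1 without RSV replicate 1 (-0.27) or either RSV+Vem library.

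Neither inhibitor passed the test in RSV+Vem against RSV. CDKN1B was at 62.7 and 76.7 CPM against 39.5 and 42.0 CPM (0.77 ± 0.30, adjusted p = 0.103, edgeR's quasi-likelihood test) and was called with only the libraries compared (0.77, adjusted p = 0.00281), and CDKN2C at 46.7 and 48.8 CPM against 41.7 and 38.0 CPM (0.26 ± 0.11, adjusted p = 0.0924). Beside the members, 11 of the 13 E2F targets fell and none rose, RRM2, the small subunit of ribonucleotide reductase, by the most (-0.92 ± 0.13). CDKN2B fell (-0.99 ± 0.15), E2F8 fell (-0.92 ± 0.13) as the largest of 4 falls in its list, and of the 9 genes of CDK activation and turnover the phosphatase CDC25A (-0.80 ± 0.14) and the ubiquitin ligase subunit SKP2 (-0.39 ± 0.12) fell.

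What RSV changed in the presence of Vem was read from RSV+Vem against Vem. CCNE2, CDKN2C, E2F1 and RB1 rose and CDK6 and CDK4 fell, while 19.1% of all tested genes rose and 18.7% fell. CCNE2 rose from 5.15 and 5.30 CPM to 15.2 and 20.6 CPM (1.75 ± 0.19, adjusted p = 1.69e-06, edgeR's quasi-likelihood test), a 3.36-fold higher level. E2F1 rose from 26.5 and 26.7 CPM to 57.3 and 54.3 CPM (1.07 ± 0.15, adjusted p = 1.79e-05), and CDKN2C from 21.0 and 22.1 CPM to 46.7 and 48.8 CPM (1.15 ± 0.12, adjusted p = 5.66e-07). RB1 rose from 93.7 and 95.7 CPM to 120 and 151 CPM (0.51 ± 0.14, adjusted p = 0.00746).

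CCND1 was at 141 and 127 CPM against 149 and 150 CPM (-0.15 ± 0.09, adjusted p = 0.174, edgeR's quasi-likelihood test), with a 95% interval from -0.34 to 0.03. CDK6 fell to 27.1 and 33.2 CPM (-0.39 ± 0.14, adjusted p = 0.031) and CDK4 to 192 and 185 CPM (-0.26 ± 0.08, adjusted p = 0.0194). Between 3 and 4 members were called without 1 library, and CCNE2, CDKN2C and E2F1 were called in each of the 4 fits. The call of CDK4 was lost without any 1 of the 4 libraries (-0.29 to -0.24), that of RB1 without Vem replicate 1 (0.49) or RSV+Vem replicate 2 (0.34), and that of CDK6 without either Vem library (-0.33 and -0.44) or RSV+Vem replicate 1 (-0.24).

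Beside the members, RSV raised 12 of the 13 E2F targets over Vem alone and lowered none, with a median of 1.15, and the replication licensing factor CDT1 rose by the most (1.99 ± 0.13). CDKN2B, CDKN2A and CDKN1C also rose, and CDK2 fell (-0.56 ± 0.08). CDKN1A had 22 and 9 counts against 0 in both Vem libraries. Of the other pocket and E2F genes 5 rose, E2F2 by the most (1.54 ± 0.13), and E2F4 fell (-0.41 ± 0.12), and 4 of the 9 genes of CDK activation and turnover rose, CKS1B by the most (1.74 ± 0.11).

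Whether RSV altered the response to Vem was tested as the interaction, the difference between the log2 fold change of Vem with RSV and without it. It was called in 5 members, all in the direction of a weaker fall or no fall with RSV. In all tested genes the interaction was higher in 11.8% and lower in 10.9%, and the median was 0.57 over the members and 0.02 over all genes. CCNE2 had the largest value (1.15 ± 0.25, adjusted p = 0.00307, edgeR's quasi-likelihood test): it fell by 1.80 on the log2 scale without RSV and by 0.65 with it. CDKN2C had an interaction of 0.72 ± 0.16 (adjusted p = 0.00311), RB1 of 0.69 ± 0.19 (adjusted p = 0.016), E2F1 of 0.58 ± 0.20 (adjusted p = 0.0439) and CCND1 of 0.56 ± 0.12 (adjusted p = 0.00272). CCND1 averaged 398 CPM with RSV and 656 CPM in vehicle, and 134 and 149 CPM once Vem was added to each.

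The members that did not pass include CDKN1B (0.97 ± 0.42, adjusted p = 0.14, edgeR's quasi-likelihood test) and CDK6 (0.41 ± 0.19, adjusted p = 0.124). CCND3 (-0.22 ± 0.17), CDK4 (-0.03 ± 0.12) and CCNE1 (0.01 ± 0.25) had values near or below 0. Leaving out 1 library gave between 3 and 7 calls, with 3 without Vem replicate 1 or RSV+Vem replicate 2 and 7 without vehicle replicate 2, and CCNE2, CDKN2C and CCND1 were called each time. The 7 include CCND3 with a lower interaction (-0.46, adjusted p = 0.0378, edgeR's quasi-likelihood test), CDK6 (0.54, adjusted p = 0.0448) and CDKN1B (1.36, adjusted p = 0.000726), and E2F1 is not among them. The call of E2F1 was lost with RLE factors, with only the libraries compared, and without any of 6 libraries, all but vehicle replicate 1 and RSV replicate 1 (0.35 to 0.62), and that of RB1 without vehicle replicate 1, Vem replicate 1, RSV replicate 1 or RSV+Vem replicate 2 (0.52 to 0.67). All 13 E2F targets had a higher interaction, CCNA2, a cyclin of S phase, by the most (1.68 ± 0.19). E2F7 (1.05 ± 0.20) led 5 calls in its list, CKS1B (1.69 ± 0.15) led 6, and CDKN2B had a lower one (-1.47 ± 0.24).

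**Figure D3:**
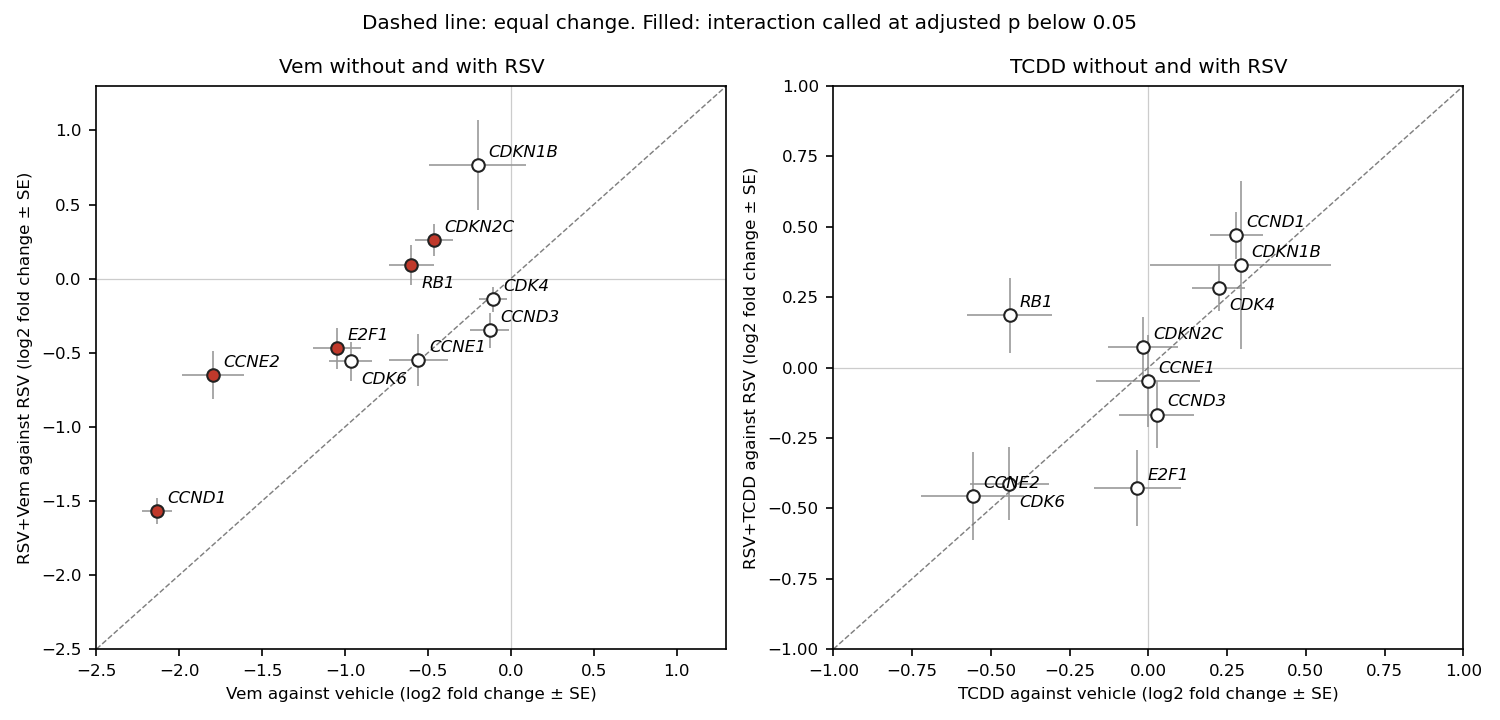
Change with Vem (left) or TCDD (right) without RSV (horizontal axis) and with RSV (vertical axis), as log2 fold change ± SE. On the dashed line both changes are equal, and filled points have a called interaction. The 5 filled members in the left panel, CCND1, CCNE2, CDKN2C, RB1 and E2F1, lie above the line, and no point in the right panel is filled.

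The effect of the AhR agonist was read from TCDD against vehicle. TCDD lowered 2 members, CCNE2 and CDK6, and raised none, among all tested genes of which 4.72% rose and 2.01% fell. CCNE2 was at 13.3 and 11.2 CPM against 16.7 and 19.5 CPM (-0.56 ± 0.16, adjusted p = 0.0484, edgeR's quasi-likelihood test), and CDK6 at 59.0 and 53.0 CPM against 84.3 and 68.3 CPM (-0.44 ± 0.12, adjusted p = 0.0408). CCND1 was higher in both TCDD libraries, at 759 and 831 CPM, without passing the test (0.28 ± 0.08, adjusted p = 0.0541), and RB1 was lower, at 112 and 99.3 CPM (-0.44 ± 0.13, adjusted p = 0.0601). E2F1 was at 50.3 and 57.5 CPM (-0.04 ± 0.14, adjusted p = 0.917), overlapping vehicle, as were CCND3, CCNE1, CDKN1B and CDKN2C.

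The calls of CCNE2 and CDK6 did not hold when either TCDD library was left out. CCNE2 was at -0.70 and CDK6 at -0.52 without TCDD replicate 1, and at -0.45 and -0.37 without TCDD replicate 2. With DESeq2 and with only the libraries compared 4 members were called, CCND1 higher and RB1 lower being added. RB1 was also called lower without a filter on low counts (-0.46, adjusted p = 0.000508, edgeR's quasi-likelihood test). Without vehicle replicate 1 CDK6 lost its call (-0.28) and CDKN1B was called higher (0.84), and without vehicle replicate 2 CCNE2 lost its call (-0.44) and RB1 was called lower (-0.56). Of the other lists, no E2F target and no gene of CDK activation and turnover was called by edgeR's quasi-likelihood test, with 2 and 1 genes at an unadjusted p below 0.05. RBL1, a relative of RB1, fell (-0.52 ± 0.13), and CDKN1C rose (1.02 ± 0.24).

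With RSV present, TCDD raised CCND1 and called no other member. CCND1 was at 529 and 574 CPM in RSV+TCDD against 393 and 403 CPM in RSV (0.47 ± 0.08, adjusted p = 0.00327, edgeR's quasi-likelihood test), but it had the opposite sign with spike-in scaling, at -0.56. In all tested genes 3.89% rose and 2.28% fell. CDK4 (0.28 ± 0.08, adjusted p = 0.0507), CDK6 (-0.41 ± 0.13, adjusted p = 0.0653), E2F1 (-0.43 ± 0.14, adjusted p = 0.0702) and CCNE2 (-0.46 ± 0.16, adjusted p = 0.0896) did not pass. E2F1 was called lower without RSV replicate 2 (-0.60) and was at -0.22 without RSV replicate 1. An alternative chosen after seeing the data used the replicate number as a block within the RSV groups. With it all 4 were called, CDK4 higher and the others lower (adjusted p = 0.0153 to 0.0204, edgeR's quasi-likelihood test). Calls over all tested genes rose with this block as well, from 625 higher and 366 lower to 1047 and 735. CDKN1C rose (0.86 ± 0.23) and CDKN2B fell (-0.51 ± 0.14) in this comparison. No gene of the lists of E2F targets, of other pocket and E2F factors and of CDK activation and turnover was called by edgeR's quasi-likelihood test, with 4, 2 and 3 genes at an unadjusted p below 0.05.

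Adding RSV to TCDD, read from RSV+TCDD against TCDD, raised CCNE2, CDKN2C and RB1 and lowered CCND1, CDK6 and CDKN1B, where 18.6% of all tested genes rose and 19.1% fell. CCNE2 was at 18.5 and 21.7 CPM against 13.3 and 11.2 CPM (0.71 ± 0.16, adjusted p = 0.00256, edgeR's quasi-likelihood test), CDKN2C at 41.4 and 42.4 CPM against 30.8 and 27.8 CPM (0.51 ± 0.11, adjusted p = 0.0014) and RB1 at 130 and 158 CPM against 112 and 99.3 CPM (0.45 ± 0.13, adjusted p = 0.0155), but with spike-in scaling CCNE2 was at -0.0023, CDKN2C at -0.18 and RB1 at -0.27, so their directions turned. CCND1 fell from 759 and 831 CPM to 529 and 574 CPM (-0.53 ± 0.08, adjusted p = 0.000107), CDK6 from 59.0 and 53.0 CPM to 31.1 and 34.9 CPM (-0.77 ± 0.13, adjusted p = 0.000171) and CDKN1B from 107 and 86.4 CPM to 44.3 and 60.5 CPM (-0.89 ± 0.29, adjusted p = 0.0442). E2F1 was at 60.0 and 55.0 CPM (0.10 ± 0.14, adjusted p = 0.617). The call of CDKN1B was lost without any 1 of the 4 libraries and with a replicate block (-0.88, adjusted p = 0.066), and that of RB1 without TCDD replicate 2 (0.37) or RSV+TCDD replicate 2 (0.30). TK1 rose (1.08 ± 0.11) and MCM6, another helicase subunit, fell (-0.40 ± 0.10) as the largest of 4 rises and 3 falls among the E2F targets. CDKN2B rose (2.31 ± 0.17), CDK2 fell (-0.48 ± 0.08), and CDKN1A had 21 and 32 counts against 4 and 0. E2F2 rose (0.77 ± 0.12), E2F5 fell (-0.67 ± 0.25) and SKP2 fell (-0.70 ± 0.12) as the largest of 4 falls in its list.

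No interaction of RSV and TCDD was called among the members by edgeR's quasi-likelihood test or by DESeq2, and 0.0124% of all tested genes had a higher and 0.137% a lower one. At an unadjusted p below 0.05 there was 1 member, RB1 (0.63 ± 0.19, adjusted p = 0.325, edgeR's quasi-likelihood test). RB1 was called without a filter on low counts (0.66, adjusted p = 0.00348, edgeR's quasi-likelihood test). In that fit 88 of 31085 genes had a higher and 82 a lower interaction. E2F1 was next in size at -0.39 ± 0.19 (adjusted p = 0.658). No gene of the 4 lists of cell cycle genes beside the members was called.

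**Figure D4:**
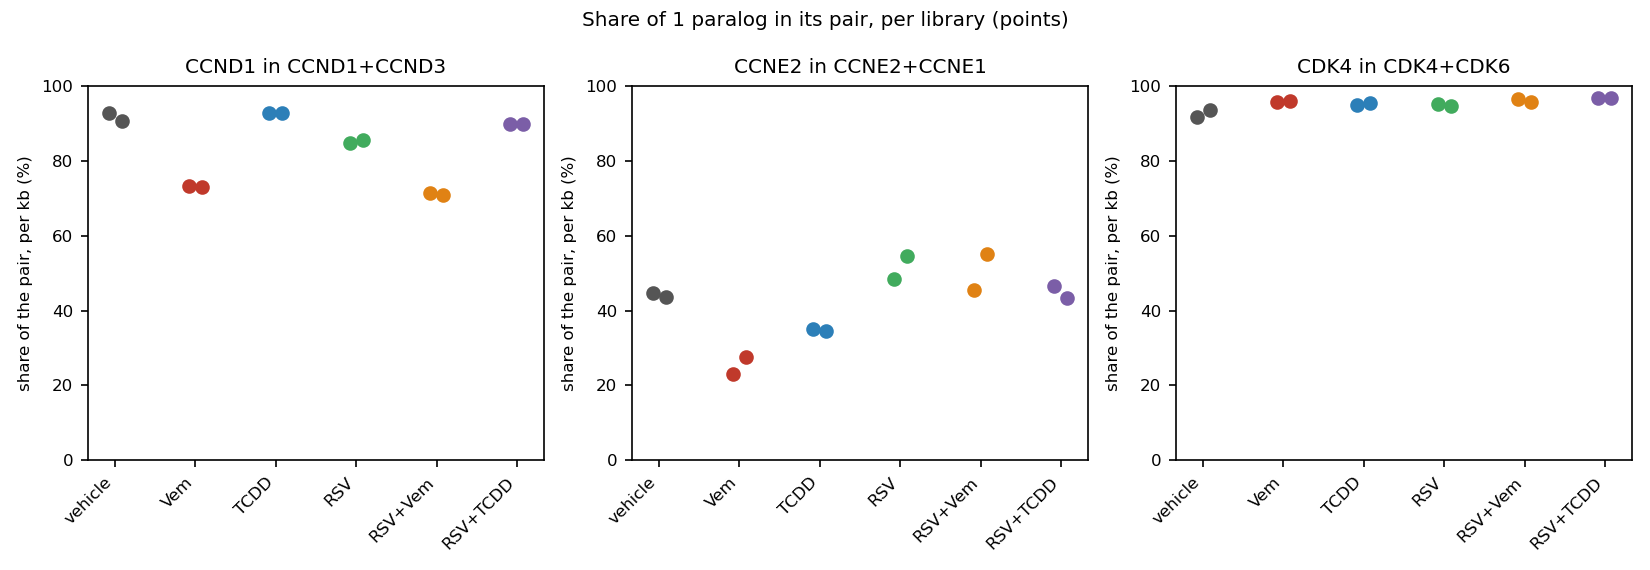
Share of CCND1 in both measured D-type cyclins, of CCNE2 in both E-type cyclins and of CDK4 in CDK4 plus CDK6, in percent of their summed level per kb (vertical axes) by treatment (horizontal axes), with 1 point per library. CCND1 lies at 70.7% to 73.3% in the 4 libraries that hold Vem and at 84.7% to 92.9% in the others.

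The composition of each pair, which needs no scaling between libraries, also varied. CCND1 made up 84.7% and 85.5% of the D-type pair per kb with RSV and 71.4% and 70.7% with RSV+Vem, against 92.9% in both TCDD libraries and 89.9% in both RSV+TCDD libraries. CCNE2 made up 35.1% and 34.4% of the E-type pair with TCDD, below both vehicle libraries, 48.5% and 54.7% with RSV and 45.6% and 55.2% with RSV+Vem. CDK4 held between 91.7% and 96.8% of the CDK4 and CDK6 level in every library.

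Genes whose levels followed a member most closely over the 12 libraries were looked up among 9881 genes of at least 10 CPM. For CCND1 they were TRIM48 (Pearson's r = 0.99), IL6R (0.99) and LDB3 (0.99), and TRIM48, for example, averaged 29.3 CPM in vehicle, 1.54 CPM with Vem and 43.5 CPM with TCDD. For E2F1 they were SMTN (0.98), CDH24 (0.97) and CDR2 (0.96), and SMTN averaged 27.2 CPM in vehicle, 11.5 CPM with Vem and 40.6 CPM with RSV. These values share libraries and treatments and are descriptions.

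Exons of some members lie on the strand opposite to exons of a neighbour. Which strand was counted is not settled, since reads of this kit usually come from the strand opposite to the one the stated setting counts, so the values of these members carry this doubt. The overlap took up 44.2% of the exonic bases of CDK4 (chr12:58141510-58149796) with TSPAN31, 37.05% of those of CCNE2 with INTS8, 20.4% of those of CDKN2C (chr1:51426417-51440306) with a long noncoding RNA and 10.4% of those of CCND1 (chr11:69455924-69469242) with LTO1. TSPAN31 rose with Vem (0.99 ± 0.11, adjusted p = 3.75e-07, edgeR's quasi-likelihood test) where CDK4 did not pass the test. INTS8 fell with Vem by 0.53 on the log2 scale where CCNE2 fell by 1.80. CDK2, at 429 ± 38.6 CPM per kb in vehicle, overlaps a long noncoding RNA by 14.5% and PMEL by 2.29% of its exonic bases. PMEL averaged 7861 CPM in vehicle and 21695 CPM with Vem, where CDK2 averaged 1666 and 1642 CPM.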

How the data were processed

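Per the labels, total RNA of 501Mel cells was extracted after 48 h of treatment, mRNA libraries were made with a stranded kit and sequenced as read pairs. The authors aligned the pairs with STAR 2.4.0a to hg19 (GRCh37) and summed them by gene symbol in featureCounts (Subread 1.5.0-p3), strand setting 1. Reads of this kit usually come from the strand opposite to the one this setting counts. Which strand was counted is not settled from the table, in which ACTB held 14728 to 61039 counts per library. The deposited values are raw counts without normalization, of 56638 symbols, and 96 control rows, of which 92 are ERCC spike-ins and hold 0.0310% to 0.0936% of counts, were left out of the tests.

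Members and lists were chosen with earlier results of these data known. All 10 members are named. From the other lists, the called genes with the largest rise and fall are named, and all called genes where at most 3 were called. Counts were scaled by TMM (factors 0.890 to 1.08), filtered by filterByExpr and fitted by edgeR 4.0.16 in R 4.3.3 (quasi-likelihood, robust, 1 term per group, all 12 libraries), with a common biological coefficient of variation of 0.0915. Chi-square statistics between the libraries of a group, divided by their degrees of freedom, were 4.61 to 22.6, so none were alike within counting noise. Intervals cover 95%. Alternatives were DESeq2 1.42.0, RLE factors, spike-in scaling, no filter, a replicate block over all groups or within the RSV groups, only the libraries compared and leaving out each library. The fit was tested on simulated data. Positions and exon lengths are from GENCODE on GRCh37, and the release counted by the authors is not given in the sources used here. Motif words were searched in RefSeq promoters. Python 3.11.15 with matplotlib 3.10.9 drew the figures.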

Additional observations from a re-analysis of the deposited data

Results flagged for a closer look

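The response to Vem differed with and without RSV in 5 of the 10 members, by the interaction term of edgeR's quasi-likelihood test, with p-values adjusted over all tested genes, of which 11.8% had a higher and 10.9% a lower interaction. On the log2 scale the interaction was 1.15 for CCNE2 (adjusted p = 0.00307), 0.72 for CDKN2C (adjusted p = 0.00311), 0.69 for RB1 (adjusted p = 0.016), 0.58 for E2F1 (adjusted p = 0.0439) and 0.56 for CCND1 (adjusted p = 0.00272). In 3 of the 5, CCND1, CCNE2 and E2F1, Vem lowered the level in both settings, and in CDKN2C and RB1 it lowered it without RSV and did not pass the test with RSV. With spike-in scaling none of the 5 was called. E2F1 also lost its call with RLE factors and with only the libraries compared, and the calls of E2F1 and RB1 depended on single libraries. Groups of 2 libraries are too small for a search for outlying samples.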

How the results depend on the processing

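With spike-in scaling, where the controls are 0.0310% to 0.0936% of counts, the median of all genes shifted to -0.68 (Vem against vehicle), -0.51 (TCDD against vehicle), -0.17 (RSV against vehicle), -0.52 (RSV+Vem against RSV), -0.02 (RSV+Vem against Vem), -1.02 (RSV+TCDD against RSV) and -0.70 (RSV+TCDD against TCDD), and to 0.15 and -0.52 in the interactions of RSV with Vem and with TCDD. ERCC shares were 0.0389% and 0.0903% in the RSV+Vem libraries and 0.0630% and 0.0936% in the RSV+TCDD libraries. Within each other group they lay closer together. Spike-in scaling left 6 of 7 members called with Vem, 0 of 2 with TCDD and 0 of 7 with RSV. It left 1 of 6 in RSV+Vem against RSV, 1 of 6 in RSV+Vem against Vem and 3 of 6 in RSV+TCDD against TCDD. In the interaction with Vem it left 0 of 5. It gave 5 calls in place of 1 in RSV+TCDD against RSV, all lower, where 6926 of all 16080 tested genes were lower and 1 higher. Elsewhere all-gene calls, higher and lower, were 195 and 3620 with Vem, 2 and 8 with TCDD and 256 and 113 with RSV. They were 20 and 461 in RSV+Vem against RSV, 334 and 55 in RSV+Vem against Vem and 160 and 1752 in RSV+TCDD against TCDD. In the interaction with Vem they were 8 and 0. The 5 interactions of RSV and Vem kept their sign without a call, at 1.22 for CCNE2, 0.84 for CDKN2C and 0.77 for RB1. CCND1 was at 0.72 and E2F1 at 0.70. Spike-in scaling turned 4 called values: CCND1 in RSV+TCDD against RSV to -0.56, and in RSV+TCDD against TCDD CCNE2 to -0.0023, CDKN2C to -0.18 and RB1 to -0.27, none of them called. The cause was not tested.

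DESeq2 called 4 members with TCDD and 2 in RSV+TCDD against RSV, only the libraries compared gave 4 with TCDD, and no filter on low counts gave 5 in RSV+TCDD against RSV and 1, RB1, in the interaction of RSV and TCDD. Leaving out 1 library gave 0 to 2 calls with TCDD, 3 to 7 with RSV, 1 to 3 in RSV+Vem against RSV, 3 to 4 in RSV+Vem against Vem, 1 to 2 in RSV+TCDD against RSV and 3 to 7 in the interaction of RSV and Vem, and the lone library of a group was then assumed to vary like the others. Calls over all tested genes also fell in most fits without 1 library, so a lost call there is not by itself particular to a member. RLE factors lost 1 call, E2F1 in the interaction of RSV and Vem, which was also lost with only the libraries compared. With RSV, CDK4 and CDKN1B lost their calls without a filter (adjusted p = 0.0511 and 0.0915, edgeR's quasi-likelihood test) and with only the libraries compared (adjusted p = 0.143 and 0.132), and CDKN1B did so in RSV+TCDD against TCDD without a filter (adjusted p = 0.132). Each value of 1 member in 1 comparison was counted once with spike-in scaling and once per fit without a library. Fits without a library thus gave many more values, and the counts are not comparable as they stand. The sign turned without a call either way in 42 values without a library and in 23 with spike-in scaling. Sign and call both stayed in 331 and 33 such values.

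With the replicate number as a block, 7 members were called with Vem, 2 with TCDD, 6 with RSV, 2 in RSV+TCDD against RSV, where CDK4 was added, and 5 in RSV+TCDD against TCDD. The differences between replicates, correlated over 15 pairs of groups, gave r above 0.1 in 6 and below -0.1 in 5. The 3 pairs among the RSV groups had r between 0.37 and 0.53, and TCDD had r between -0.50 and -0.39 with each of these groups, so the numbers were not taken as pairing all libraries. A replicate block within the RSV groups was chosen after seeing the data. It gave 6 calls in RSV+Vem against RSV. In RSV+TCDD against RSV it gave 5 in place of 1, with CDK4 higher and CDK6, CCNE2 and E2F1 lower added. Calls over all tested genes rose with this block too. In RSV+Vem against RSV, 1823 higher and 2149 lower became 2333 and 2583. In RSV+TCDD against RSV, 625 and 366 became 1047 and 735. With 8378655 to 25076925 counts per library, CCNE1 and CCNE2 rested on as few as 83 and 69 counts, which limits the precision of their values.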
